A study of Saccharomyces cerevisiae with 75 samples.

Results

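A set of comparisons in budding yeast (Saccharomyces cerevisiae) asked what changes when the nonsense-mediated decay factor Upf1 is removed from cells that already lack the SR-like protein Npl3. They were the arrays that set a strain lacking both genes, written Dnpl3Dupf1 or Dupf1+Dnpl3 in the labels, against the single deletion Dnpl3. They comprised 6 of the 75 arrays of the series and 3 of its 37 extract pairs of deletion strains, 1 pair at 30 °C with no time given, 1 after 15 min at 37 °C and 1 after 30 min at 37 °C. Each extract pair was hybridised to 2 arrays with the dyes exchanged. The 3 pairs carry 3 different title prefixes (the first field of the array title). Temperature, time and prefix therefore differ together and cannot be told apart. The numerator lacked NPL3 and NAM7 (the gene for Upf1), and the denominator, grown at the same temperature, lacked NPL3 alone. A wild type was therefore on neither side of these arrays. The labels give no strain background, mating type, selection marker or number of cultures. Total RNA was copied into cDNA and hybridised to splicing-specific spotted arrays, and every value below is a log2 ratio of the double deletion over the npl3 deletion unless another ratio is named.

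Nonsense-mediated decay removes cytoplasmic mRNAs on which ribosomes stop too early, and Upf1 is its central ATP-dependent RNA helicase. Introns of budding yeast commonly bring in early stop codons, so transcripts that escape splicing and reach the cytoplasm can be degraded by this pathway. Npl3 is an abundant RNA-binding protein with SR-like and arginine-glycine repeats that works in mRNA export, transcript 3′ end formation and pre-mRNA splicing, and many of the introns of this organism lie in genes for ribosomal proteins.

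NAM7 was low on all 6 arrays, which fixed the direction of the ratios. Its single probe read -2.70 and -2.71 at 30 °C, -4.81 and -3.48 in the 15 min pair, and -3.78 and -4.12 in the 30 min pair (the array with the double deletion in Cy5 first). Its fall was fixed by that use, so NAM7 is counted among the falls below for completeness and is not a result. NPL3, absent from both strains by label, lay between -0.19 and 0.16 on the 6 arrays, and its mean of -0.05 did not pass (limma adjusted p = 0.966). The arrays had no value at 2.39% to 3.89% of their 9216 spots, and spots of 1 probe (6 per array) had a median SD of 0.123 to 0.254. Within an extract pair, both dye orientations correlated over probes at 0.681 at 30 °C, 0.153 after 15 min and 0.465 after 30 min, as a description of arrays that share the extracts.

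Genes specific to a mating type also separated the compared strains. MFA2, which encodes the a-factor pheromone, was 3.82 and 3.67 at 30 °C, 3.0 and 2.85 after 15 min, and 3.02 and 3.93 after 30 min. MF(ALPHA)1, which encodes the alpha-factor pheromone, read -4.81 and -6.34 at 30 °C, -4.81 and -4.25 after 15 min, and -5.55 and -6.21 after 30 min. All 6 arrays thus had more a-factor RNA and less alpha-factor RNA in the double deletion. MFA2 rose by 3.38 ± 0.37 (SE, limma adjusted p = 3.48e-06), and MF(ALPHA)1 fell by 5.33 ± 0.86 (adjusted p = 0.000231). The a-factor receptor gene STE3 of alpha cells fell by 3.63, the alpha regulator gene MATALPHA1 by 2.57 and the second alpha-factor gene MF(ALPHA)2 by 1.86, each below 0 on 6 of 6 arrays. MFA1, the other a-factor gene, rose by 1.38 (adjusted p = 0.046 as a single probe) and was above 0 on 5 of 6 arrays. Of the markers listed for each type, 2 of 6 a-specific and 3 of 4 alpha-specific genes were on the array. The labels give no mating type. In such bulk RNA, strains of unlike mating type, fewer cells of a type and less RNA per cell cannot be told apart.

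The mating-type difference was also present where upf1 deletion was compared with wild type. There MFA2 was 3.90 after 15 min and 2.74 after 30 min at 37 °C, and MF(ALPHA)1 was -3.92 and -5.00. Where both strains lacked Upf1, in the double deletion over the upf1 deletion at 30 °C, MFA2 was -0.42 and MF(ALPHA)1 -0.01. In the npl3 deletion over wild type, MFA2 averaged 0.05 at 30 °C, -0.04 after 15 min and -0.10 after 30 min. There the alpha-type genes were not flat, with MF(ALPHA)1 at 0.34, 1.35 and 0.997 and STE3 at 0.46, 1.28 and 0.76 in the same order. Strains with and without Upf1 therefore differed at these genes as well as at NAM7, and the part of mating type in any change described below was not tested. Genes shared by both haploid types did not pass, with RME1, a repressor of meiosis, at 0.49 (adjusted p = 0.375) and FUS3, a pheromone-response kinase, at -0.39 (adjusted p = 0.687).

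**Figure D1:**
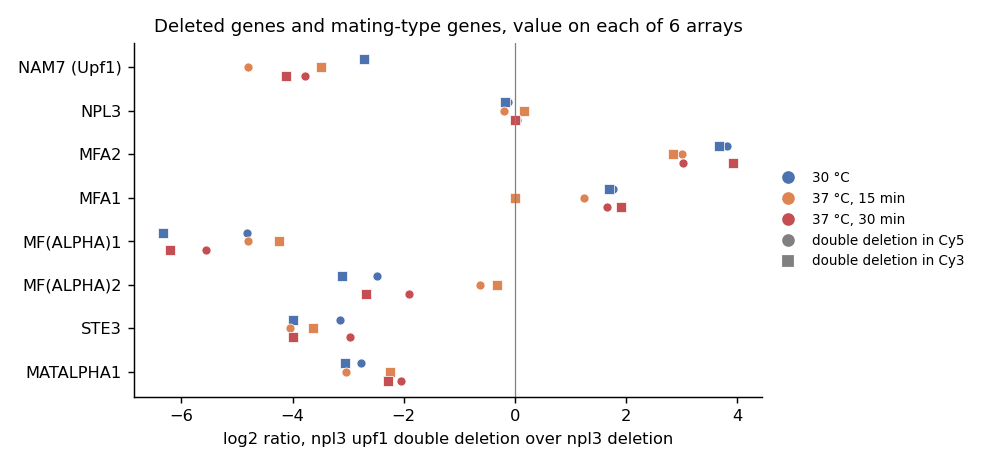
Log2 ratio of the npl3 upf1 double deletion over the npl3 deletion (horizontal axis) for the probes of both deleted genes and of 6 mating-type genes (rows). Each point is 1 array, with colour for the condition and shape for the dye of the double deletion. NAM7 lies between -4.81 and -2.70, NPL3 lies near 0, a-factor genes lie to the right and alpha-specific genes to the left.

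Over the 3 extract pairs, many more probes rose than fell in the double deletion relative to the npl3 deletion. Of 1536 probes tested, 148 (9.64%) passed limma at an adjusted p under 0.05. These were 140 rises (9.11%) and 8 falls (0.521%). The falls include NAM7, which leaves 7 that the direction of the ratios did not fix. All 8 falls were below 0 on 6 of 6 arrays, as were 113 of the 140 rises above 0. The median over all probes was -0.04, and the median SE was 0.16. SE and p-values take their spread from replicate pairs of other groups, because each condition had 1 pair. They do not measure how far the 3 pairs differ from each other, which the SD gives. Between pairs the ratios correlated over 1536 probes at 0.80 for 30 °C and 15 min, 0.79 for 30 °C and 30 min and 0.82 for both times at 37 °C, as a description across probes of the same array design. Without the 30 °C pair 58 probes passed, and without the pair at 37 °C for 30 min 97 did, while 114 passed without the pair at 15 min.

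The rises lay mainly at one printed position. For 230 genes the array carries 3 probes in a fixed print order. The sources used here do not tell which stretch of a transcript (exon, intron or junction) a given position detects. Of the second probes 88 of 230 rose, of the first probes 13 of 230 rose and 1 fell, and of the third probes 3 of 230 rose. Limma called 0 falls among the second and the third probes, where 0 and 15 lay below 0 at an unadjusted p under 0.05. Among 694 probes of other named protein genes 31 rose and 7 fell. Of 64 probes for noncoding RNAs limma called 0, with 0 above and 5 below 0 at an unadjusted p under 0.05.

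Ribosomal protein genes led the second probes. Of 99 such genes, 64 second probes rose, 97 had a mean above 0 and 85 were above 0 on 6 of 6 arrays, with a median of 0.77 against -0.04 over all probes tested. The first and the third probes of these genes had medians of 0.00 and -0.20. Of 131 other genes 24 second probes rose, with a median of 0.18. The median second probe of the ribosomal protein genes was 1.01 and 1.21 on the arrays at 30 °C. At 37 °C it was 0.56 and 0.63 (15 min) and 0.62 and 0.77 (30 min; double deletion in Cy5 first). It was above 0 on every array, and both arrays at 30 °C were above all 4 at 37 °C. The 30 °C pair also differs from the others in title prefix, so this gap cannot be assigned to temperature. For ribosomal protein genes that lack this set of 3 probes, 2 of 29 probes had a mean above 0, with a median of -0.15.

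**Figure D2:**
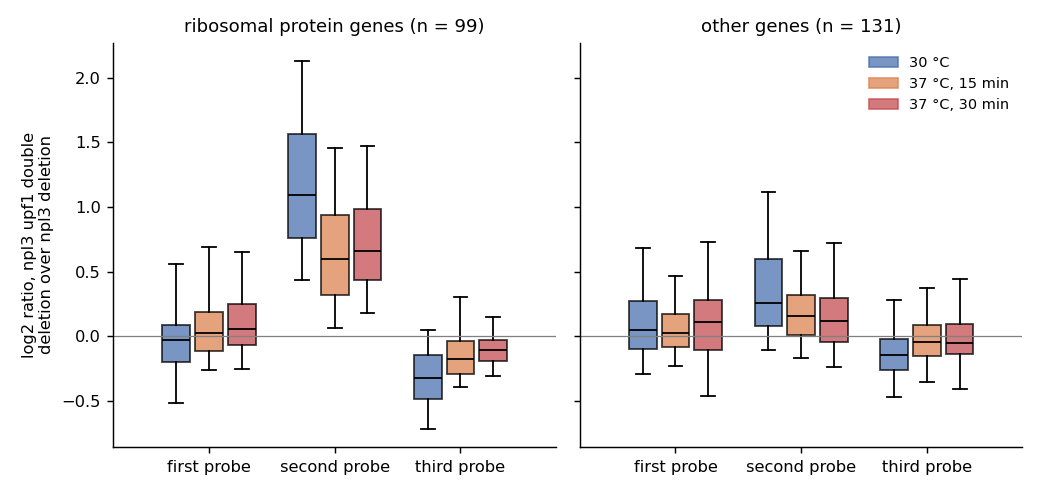
Log2 ratio of the double deletion over the npl3 deletion (vertical axis) for the first, the second and the third printed probes of 99 ribosomal protein genes (left) and 131 other genes (right) in each extract pair. Boxes span the quartiles with the median as a line, and whiskers run from the 5th to the 95th percentile of probes. The second probes of ribosomal protein genes stand above the other positions in all 3 pairs, with medians of 1.09, 0.60 and 0.66.

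RPL22B and RPL28 had the highest means over the 3 pairs among single probes of ribosomal protein genes. The second probe of RPL22B (YFL034C-A, chromosome VI), one of the paralogs for large-subunit protein eL22, read 2.55 and 3.15 at 30 °C, 1.98 and 2.19 after 15 min, and 2.18 and 2.43 after 30 min. That of RPL28 (YGL103W, chromosome VII), the CYH2 gene whose unspliced RNA is the textbook natural substrate of nonsense-mediated decay in yeast, read 2.66 and 2.24, 1.96 and 1.85, and 2.22 and 1.97. Both probes were high on every array, with a spread between pairs that was small beside the mean. RPL22B rose by 2.41 ± 0.26 (SE; SD 0.40, n = 3 pairs, limma adjusted p = 3.43e-06) and RPL28 by 2.15 ± 0.25 (SD 0.28, adjusted p = 6.35e-06). The first probe of RPL22B rose as well, by 1.93 (adjusted p = 6.75e-06), and the third probe of RPL28 rose by 0.96 (adjusted p = 0.000122). This probe was uneven, at 0.07 at 30 °C, 1.71 after 15 min and 1.10 after 30 min.

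Small-subunit genes followed. RPS10B, for protein eS10, read 2.4 and 2.8 at 30 °C, 1.47 and 0.48 after 15 min, and 1.70 and 2.18 after 30 min, and its second probe rose by 1.83 ± 0.31 (SE; SD 0.80, adjusted p = 0.000283). RPS21B, for eS21, rose by 1.74 (SE 0.40, adjusted p = 0.00603), with pair means of 2.13, 1.68 and 1.41 in the order 30 °C, 15 min and 30 min. RPS9A, for uS4, rose by 1.62 (SE 0.46, adjusted p = 0.027), RPS23B, for uS12, by 1.49 (SE 0.25, adjusted p = 0.000276) and RPS7B, for eS7, by 1.49 (SE 0.28, adjusted p = 0.000916). All 5 second probes were above 0 on 6 of 6 arrays. The first probe of RPS9A rose as well, by 1.125 (SE 0.134, adjusted p = 7.09e-06). Without the 30 °C pair RPS21B (1.54, adjusted p = 0.0997) and RPS9A (1.31, adjusted p = 0.327) were no longer called.

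Among the other large-subunit genes, RPL21B (eL21) varied least between conditions. Its second probe had pair means of 1.55, 1.73 and 1.79, and it rose by 1.69 ± 0.24 (SE; SD 0.12, adjusted p = 6.33e-05). RPL18B (eL18) rose by 1.63 (SE 0.34, adjusted p = 0.00225), RPL17B (uL22) by 1.61 (SE 0.34, adjusted p = 0.00299) and RPL27A (eL27) by 1.54 (SE 0.27, adjusted p = 0.000453). RPL17B was not called without the 30 °C pair (1.39, adjusted p = 0.0726). Paralogous ribosomal protein genes are close in sequence, and how far their probes tell the copies apart is not given in the sources used here. Their separate values are therefore uncertain as to which copy they come from.

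**Figure D3:**
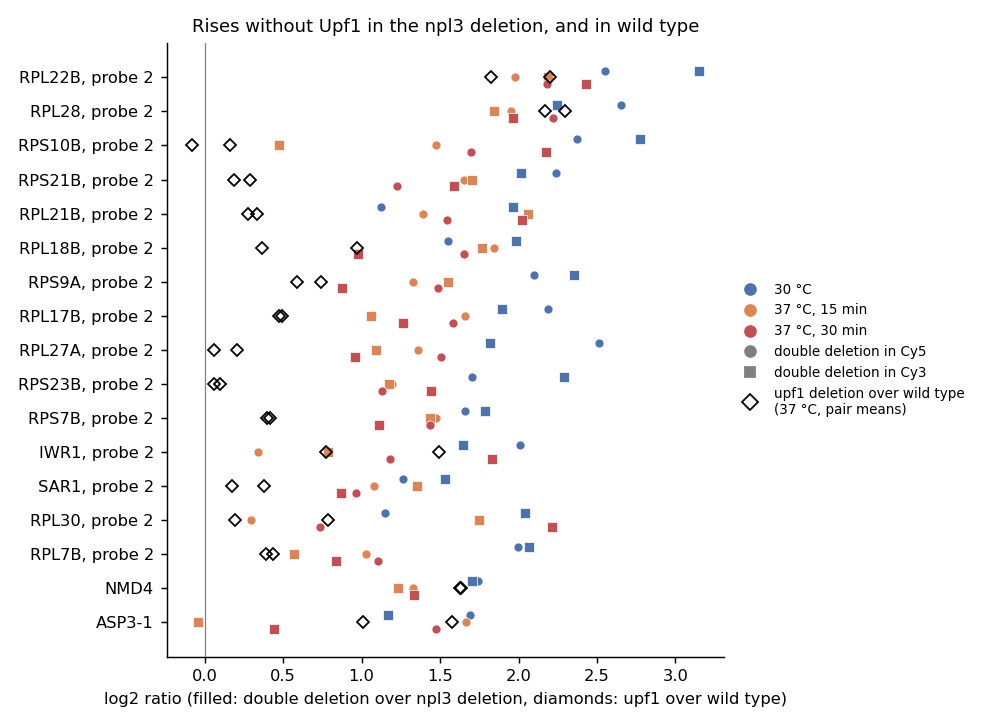
Log2 ratio (horizontal axis) of the 11 second probes of ribosomal protein genes with the highest called means, of 4 further second probes and of NMD4 and ASP3-1 (rows). Filled points are single arrays of the double deletion over the npl3 deletion, with colour for condition and shape for dye, and open diamonds are the upf1 deletion over wild type at 37 °C, 1 per extract pair. For RPL22B, RPL28 and NMD4 the diamonds lie among or close to the points, and for RPS10B, RPL21B, RPL27A and RPS23B they lie near 0.33 or below.

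Genes outside the ribosome that rose at their second probe spanned several functions. IWR1 (YDL115C, chromosome IV), which takes part in nuclear import of RNA polymerase II, read 2.01 and 1.65 at 30 °C, 0.34 and 0.79 after 15 min, and 1.18 and 1.83 after 30 min. It rose by 1.3 ± 0.12 (SE; SD 0.66, adjusted p = 4.14e-07), and the pair at 15 min was the low one. SAR1, the GTPase that builds COPII vesicle coats, rose by 1.18 (SE 0.16, adjusted p = 2.4e-05) and was at least 0.87 on every array. REC107, a meiotic recombination gene with a regulated intron, rose by 0.95 (adjusted p = 0.00011), and GLC7, the type 1 protein phosphatase, by 0.94 (adjusted p = 0.0474). Others that rose there included GCR1, a transcriptional activator of glycolysis genes (0.89), the proteasome subunit gene PRE3 (0.84), the SNARE recycling factor gene SEC17 (0.82), the chromatin protein gene NHP6B (0.78), the phospholipid synthesis gene CPT1 (0.72) and the vesicle GTPase gene ARF2 (0.69). HMRA1, by annotation the silent copy of the a1 mating-type gene, also rose at its second probe (0.70), with 1.37 at 30 °C and 0.38 and 0.35 at 37 °C. Its dye orientations disagreed at 37 °C, with -0.15 and 0.92 after 15 min and -0.13 and 0.84 after 30 min (double deletion in Cy5 first). Whether this probe tells the silent copy from an expressed one is not given in the sources used here. GLC7, PRE3 and the genes after PRE3 were picked with their values known. The first probes of IWR1 (0.58, adjusted p = 0.00207), REC107 (0.83, adjusted p = 2.81e-05) and GCR1 (0.51, adjusted p = 0.0183) rose too. First probes of the other genes in this paragraph were not called.

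Genes used in textbooks as examples of yeast introns passed the test in part. Averaged over the probes of each gene, 63 of 982 genes on the array passed (6.42%), 56 rises (5.7%) and 7 falls (0.713%, with NAM7 counted). Of 23 measured textbook intron genes 6 rose and 0 fell (8 above and 1 below 0 at an unadjusted p under 0.05), with a median of 0.16 against -0.05 over all genes. The rises were RPL22B (1.31), RPL28 (1.16), RPS9A (0.92), RPS14B (0.89), GCR1 (0.43) and RPL22A (0.37). By single probes 14 of their 71 rose and 1 fell, where 9.11% of all probes rose and 0.521% fell. RPL30, whose protein binds its own transcript and blocks its splicing, rose at its second probe by 1.36 ± 0.18 (SE, adjusted p = 1.72e-05), where the first and the third stood at 0.22 and -0.24. Its 2 dye orientations differed in every condition, with 1.15 and 2.04 at 30 °C, 0.30 and 1.75 after 15 min, and 0.74 and 2.21 after 30 min.

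Paralogs of these genes could be set side by side. The second probe of RPL22A rose by 0.81 (adjusted p = 0.00785), beside 2.41 for RPL22B. For RPS9A and RPS9B it rose by 1.62 and 0.75. RPS14B had its called rise at the first probe (0.97, adjusted p = 0.000262), while its second probe was at 1.3 (adjusted p = 0.127) and that of RPS14A at -0.07 (adjusted p = 0.902). The second probes of RPS17A (0.31, adjusted p = 0.167) and RPS17B (0.71, adjusted p = 0.0523) did not pass as single probes. The differences between paralogs were not tested.

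The remaining textbook genes gave smaller values. The second probe of ACT1, for actin, was at 0.76, 0.54 and 0.08 in the order 30 °C, 15 min and 30 min, with a mean of 0.46 that did not pass (adjusted p = 0.128). MTR2, an mRNA export receptor subunit gene, rose at its second probe by 0.34 (adjusted p = 0.0484). YRA1, an export adaptor gene that limits its own splicing, had all 3 probes between -0.35 and -0.23, none called. The first probe of TUB1, the main alpha-tubulin gene, fell by 0.56 (adjusted p = 0.0462), and its second probe was at -0.07. No probe was called for TUB3 (minor alpha-tubulin), COF1 (cofilin), PFY1 (profilin), DBP2 (a helicase), UBC4 (a ubiquitin-conjugating enzyme), RPL25 or RPL32, whose second probes lay between -0.10 and 0.47.

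Among the decay factors themselves, NMD4 was raised. NMD4, which encodes a protein bound to Upf1 and has no second probe on the array, read 1.74 and 1.71 at 30 °C, 1.33 and 1.23 after 15 min, and 1.34 and 1.33 after 30 min. Those values were close between dye orientations, and NMD4 rose by 1.45 ± 0.25 (SE; SD 0.24, limma adjusted p = 0.000355). The genes for the other core factors did not pass, with NMD2 (Upf2) at 0.04 (adjusted p = 0.875) and UPF3 at -0.08 (adjusted p = 0.72). Of 16 decapping and 5′ to 3′ decay genes limma called 0 (1 above and 2 below 0 at an unadjusted p under 0.05), and LSM3 (-0.31), RAT1 (-0.29), LSM6 (0.28) and DCP1 (-0.21) were farthest from 0. Of 21 exosome, deadenylation and 3′ to 5′ decay genes limma also called 0 (0 above and 2 below), with the helicase gene MTR4 at -0.48 and the exosome nuclease gene DIS3 at -0.29. RRP40 and RRP6 stood at -0.28 and -0.25.

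Of 7 measured genes reported as targets of the pathway, RPL22B, RPL28 and GCR1 rose and 0 fell, where 5.7% of all genes rose. The other 4, YAP1 and CAD1 (stress transcription factors), PPR1 (an activator of pyrimidine genes) and EST2 (telomerase catalytic subunit), lay between -0.04 and 0.07 with adjusted p between 0.829 and 0.929. The list median was 0.07. It was assembled from general knowledge with earlier results of these data known, so its count is no independent support.

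A minority of splicing genes passed, and those were rises. Of 76 measured spliceosome and splicing genes 8 rose and 0 fell (12 above and 5 below 0 at an unadjusted p under 0.05), with a median of 0.01. That share can be read against 5.7% of all genes rising. They were AAR2, a U5 snRNP assembly factor (0.80, adjusted p = 0.00101), PRP46, a component of the Prp19-associated complex (0.71, adjusted p = 0.00136), the second-step factors CDC40 (0.60) and PRP18 (0.50), the lariat debranching enzyme DBR1 (0.48), the retention complex gene PML1 (0.48), the U2 snRNP gene MSL1 (0.45) and the U4/U6 snRNP gene PRP3 (0.34). Of 36 mRNA export, mRNP and 3′ end genes limma called 0 by gene means (2 above and 1 below at an unadjusted p under 0.05). HRB1, an SR-like relative of Npl3, was at 0.73 (adjusted p = 0.0567), GBP2, the other relative, at 0.35, the SR protein kinase gene SKY1 at -0.35 and YRA1 at -0.29. As a single probe among 1536, HRB1 rose (adjusted p = 0.0441), with 1.08 at 30 °C, 0.21 after 15 min and 0.91 after 30 min.

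Other groups had few rises by gene means, to be read against 5.7% of all genes. Of 8 measured heat-induced chaperone genes SSA3, a stress-induced Hsp70, rose by 0.90 (adjusted p = 0.0494). SSA4 was at 1.13 (adjusted p = 0.0836), SSA2 at 0.36, SSA1 at 0.31, SIS1 at -0.31, HSP104 at 0.17, SSE2 at 0.11 and HSC82 at -0.04. Of 11 meiotic genes with introns REC107 (0.57) and HOP2 (0.31) rose. The first probe of HOP2, a gene for meiotic chromosome pairing, was at 1.81 at 30 °C, 0.52 after 15 min and 0.75 after 30 min and rose by 1.03 (adjusted p = 0.000156). MEI4 (0.22) and SRC1 (-0.21) were next in the list. PRE3 (0.40) rose among 9 ubiquitin and proteasome genes, where UBC12 (0.25) and UBC9 (-0.11) followed. By single probes 2 of their 27 rose, where 9.11% of all probes did. One was the first probe of UBC12 (0.70, limma adjusted p = 0.000945), whose second probe was at -0.03. RFA2, a replication protein A gene that the list also holds, was at -0.19. Of 127 ribosomal protein genes averaged over all their probes 19 rose and 0 fell (38 above and 3 below 0 at an unadjusted p under 0.05), while the first or only probe of each gave 4 rises.

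By gene means limma also called 0 in the lists that follow. Of 19 secretory genes 4 lay above 0 and 0 below at an unadjusted p under 0.05, with SEC17 and SAR1 at 0.31, USE1 at 0.30 and VPS75, a histone chaperone gene that the list also holds, at 0.23. By single probes 5 of their 55 rose, the second probes of SAR1 and SEC17 among them. That count is to be read against 9.11% of all probes rising, and is near that share. Of 6 genes with 2 introns 1 lay above 0, RPL7B at 0.57 (adjusted p = 0.123), whose second probe alone rose by 1.27 (adjusted p = 1.72e-05), and HFM1 (0.09), YOS1 (-0.09), RPL7A (-0.06), DYN2 (0.06) and EFM5 (0.03) were near 0. Of 3 amino acid genes 1 lay above and 1 below, with HIS5 at 0.65 (adjusted p = 0.193), HIS4 at -0.56 (adjusted p = 0.172) and GCN4, their activator, at 0.24. COS8, the only subtelomeric gene of its list measured, was at 0.36 (adjusted p = 0.677).

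Apart from NAM7 and the mating-type genes, 3 named RNAs fell, each on 6 of 6 arrays. HTA1, for histone H2A, had pair means of -0.42, -1.13 and -1.32 and fell by 0.96 ± 0.24 (SE, adjusted p = 0.0109). GCN20, a positive effector of the Gcn2 kinase, had pair means of -0.70, -0.50 and -0.46 and fell by 0.55 ± 0.12 (adjusted p = 0.00377). TUB1 was the third, at its first probe. Among probes of genes with no set of 3, ASP3-1, one of the repeated genes for a cell-wall asparaginase, rose by 1.07 (adjusted p = 2.4e-05) with 1 of 6 arrays below 0, and CTL1, an RNA triphosphatase gene, by 1.28 (adjusted p = 0.000925). These 2 were picked with their values known.

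Each condition had 1 extract pair, whose spread was taken from the other groups, so its test has no replicate of its own. At 30 °C 72 probes rose (4.69%) and 2 fell (0.13%), NAM7 and MF(ALPHA)1 (-5.58), so that 4.82% of 1536 were called. The highest were MFA2 (3.74), RPL22B (2.85), RPS10B (2.57), RPL28 (2.45), RPL27A (2.17) and RPL7B (2.03), whose second probe rose by 1.27 over the 3 pairs. After 15 min at 37 °C 6 rose (0.391%) and 1 fell (0.0651%), 0.456% in all. The rises, each above 0 on both arrays, were MFA2 (2.92), the first and the second probe of RPL22B (2.0 and 2.08), the second and the third probe of RPL28 (1.90 and 1.71) and SAR1 (1.22). The fall was the NAM7 probe that set the direction. After 30 min 11 rose (0.716%) and 1 fell (0.0651%, again the NAM7 probe), 0.781% in all, and MFA2 (3.47), RPL22B (2.3), RPL28 (2.09), RPL21B (1.79), IWR1 (1.51) and RPL30 (1.47) led. At second probes of ribosomal protein genes the calls numbered 39, 2 and 5 of 99 in the order 30 °C, 15 min and 30 min. When 1 extract pair of another group (npl3 deletion over wild type at 30 °C, replicate 3) was kept out of the shared spread, the calls rose to 113, 24 and 37. That pair shares its title prefix with the 30 °C pair described here. Without it, no pair of that prefix enters the shared spread, so the higher counts are no neutral check.

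Calls between the conditions depended on how the title prefix was treated. Without it as a block, limma called 0 probes in each of the 3 differences (39 at an unadjusted p under 0.05 for 15 min against 30 °C, 27 for 30 min against 30 °C and 8 for 30 min against 15 min). The SE of such a difference was 0.40 for the median probe. With the title prefix as a fixed block, 88 probes were called for 15 min against 30 °C (17 higher and 71 lower after 15 min). In that fit the prefix of the 30 °C pair is linked to the others only through replicate 3 of the npl3 deletion over wild type at 30 °C. The block correction of the 30 °C ratio thus rests on that replicate alone, so these calls are no neutral check. With the title prefix as a random block limma called 0 over the 3 differences (88 at an unadjusted p under 0.05). The fixed block gives no value for the 30 min pair. Its 30 °C count was 216 in place of 74 and rests on the same replicate.

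The difference between 2 probes of the same gene gave a measure that any change shared by both probes leaves at 0. Here the probe contrast denotes the second probe's log2 ratio less the third probe's. Of 230 genes 93 (40.4%) passed over the 3 pairs, with 92 rises (40%) and 1 fall (0.435%). Among 99 ribosomal protein genes 74 rose, all 99 had a mean above 0 (0.19 to 2.82), and 95 were above 0 in all 3 pairs. RPS17B (0.95, limma adjusted p = 0.0148) and RPL32 (0.85, adjusted p = 0.0294) were among these rises, although their single probes were not called. Among 131 other genes 18 rose and 1 fell. The median contrast of the ribosomal protein genes was 1.44 at 30 °C, 0.66 after 15 min and 0.81 after 30 min, and that of the others 0.41, 0.19 and 0.17.

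RPL22B had the highest contrast, with 3.61 at 30 °C, 2.42 after 15 min and 2.43 after 30 min and a mean of 2.82 ± 0.34 (SE, limma adjusted p = 9.21e-06). RPS7B (1.92), RPL27A (1.90), RPL18B (1.88), RPL21B (1.87), RPS13 (1.85), RPS21B (1.83), RPS10B (1.78), RPL17B (1.74) and RPS29A (1.74) came next, all ribosomal protein genes, with SE between 0.33 and 0.53 and adjusted p between 0.000453 and 0.00856. RPL21B again varied least, at 1.77, 1.89 and 1.97. The fall was that of COX5B, a cytochrome c oxidase subunit gene (-0.45, -0.44 and -1.40, mean -0.77, adjusted p = 0.019), where the third probe rose by 0.88.

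The contrast calls rested on the 30 °C pair, which also differs from the others in title prefix. At 30 °C alone 68 genes rose and 0 fell (29.6%), while limma called 0 after 15 min (20 at an unadjusted p under 0.05) and 0 after 30 min (29). Without the 30 °C pair 6 of 230 were called, RPL22B (2.42, adjusted p = 0.00194) and RPL21B (1.93, adjusted p = 0.00784) among them, while RPS7B (1.68), RPL18B (1.71) and RPL27A (1.54) had adjusted p between 0.0751 and 0.0873. The difference of the contrast between conditions gave 0 calls (11, 7 and 1 at an unadjusted p under 0.05).

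**Figure D4:**
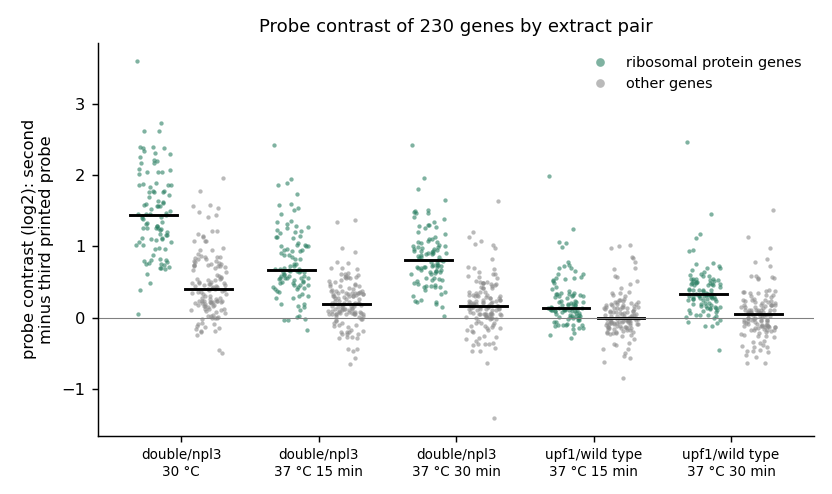
Probe contrast (vertical axis, log2, second less the third probe), for 99 ribosomal protein genes and 131 other genes in the 3 extract pairs of the double deletion over the npl3 deletion and in the 2 extract pairs of the upf1 deletion over wild type. Points are genes and bars are medians. The bars of the ribosomal protein genes stand at 1.44, 0.66 and 0.81 in the npl3 deletion and at 0.14 and 0.34 in wild type.

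Whether Upf1 loss acted alike with and without Npl3 could be asked at 37 °C, where the upf1 deletion was compared with wild type at both times, in arrays that share the title prefix with their counterpart. In wild type 15 probes rose (0.977%) and 2 fell (0.13%, NAM7 and MF(ALPHA)1), 1.11% in all. All 15 rises were also rises in the npl3 deletion, and they made up 10.7% of the 140 there. They were the probes of MFA2, NMD4, ASP3-1, PRP46, RRP8, UBC12 and IWR1 and those of REC107, RPL22B, RPL28, RPS13 and RPL42A. For RPL28 the second probe was 2.17 and 2.3 in wild type against 1.90 and 2.09 in the npl3 deletion, and for RPL22B 1.83 and 2.20 against 2.08 and 2.3 (15 min first). NMD4 stood at 1.64 and 1.63 in wild type and at 1.28 and 1.34 in the npl3 deletion. The dye-flipped arrays of the upf1 deletion over wild type correlated over probes at only 0.054 and 0.004, so these values are less certain than those of the npl3 deletion.

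Most ribosomal protein genes had low values in wild type. The median second probe of the 99 genes was 0.12 and 0.21 in the upf1 deletion over wild type after 15 and 30 min, against 0.60 and 0.66 in the double deletion over the npl3 deletion. The difference, npl3 deletion minus wild type, was above 0 for 94 of 99 second probes with a median of 0.39, for 63 of 99 first probes with a median of 0.05 and for the third probes in 31 of 99, with a median of -0.07. At second probes of the other genes it was above 0 for 99 of 131, with a median of 0.13. Over all 1536 probes the median difference was -0.0017. Of 230 probe contrasts in wild type 2 rose (0.87%), RPL22B (2.23) and IWR1 (1.15).

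No single probe passed the test of that difference in the fit without a block, and 2 passed with the title prefix as a fixed block. Without the block limma called 0 of 1536 (23 above and 3 below 0 at an unadjusted p under 0.05), and 0 of 230 probe contrasts (6 above and 0 below). Of the 23, 11 were second probes of ribosomal protein genes. RPL21B had the smallest p of these, with 1.73 and 1.79 in the npl3 deletion, 0.28 and 0.33 in wild type and a difference of 1.45 ± 0.42 (SE, unadjusted p = 0.0022, adjusted p = 1). RPS10B differed by 1.42 (SE 0.53, unadjusted p = 0.0144), RPS23B by 1.16 (SE 0.43, unadjusted p = 0.0138) and RPL27A by 1.10 (SE 0.47, unadjusted p = 0.0291), each with an adjusted p of 1. SAR1 differed by 0.79 (SE 0.27, unadjusted p = 0.00798), while HTA1 was lower in the npl3 deletion by a difference of -1.33 (SE 0.42, unadjusted p = 0.00442). For RPL28 the difference was -0.24 ± 0.43 and for RPL22B 0.18 ± 0.45, neither beyond its error.

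**Figure D5:**
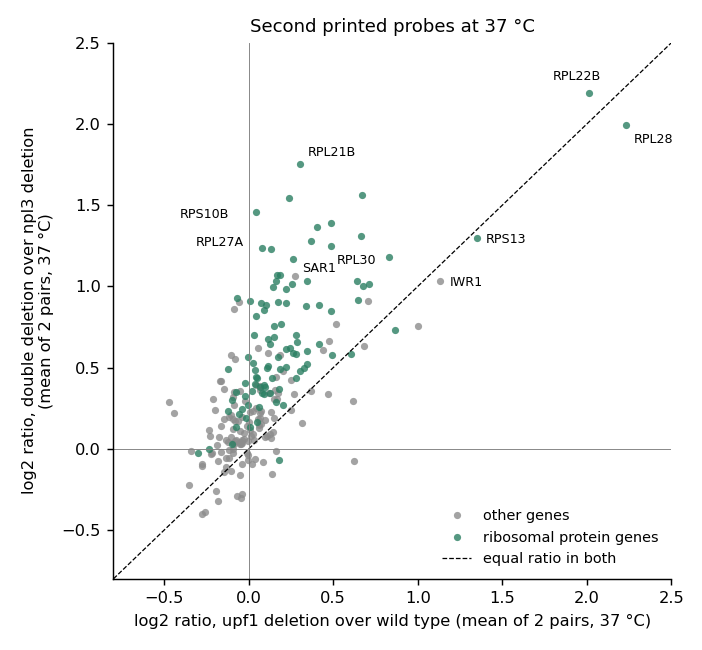
Second printed probes of 230 genes at 37 °C, with the log2 ratio of the upf1 deletion over wild type on the horizontal axis and that of the double deletion over the npl3 deletion on the vertical axis (each the mean of 2 extract pairs). The dashed line marks equal ratios. RPL22B, RPL28, RPS13 and IWR1 lie near the line, and 94 of 99 ribosomal protein genes lie above it.

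The other ratios of the series gave the same genes on other scales, and they share strains with the comparison above, so they are given side by side only. The median probe contrast of ribosomal protein genes at 30 °C was 0.40 in the npl3 deletion over wild type, 1.44 in the double deletion over the npl3 deletion and 2.10 in the double deletion over wild type. After 15 min at 37 °C these medians were 0.58, 0.66 and 1.22. For RPL28 the second probe at 30 °C was 0.12 in the npl3 deletion over wild type, 2.45 in the double deletion over the npl3 deletion and 3.02 in the double deletion over wild type. For RPS9A these ratios were 1.11, 2.23 and 4.0.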

How the data were processed

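The deposited table holds 1 column per array, and all values below were derived from it. Per the file headers it states neither scale, centring nor direction. The values were taken as log2 ratios as deposited by the authors, because the largest absolute value was 12.0 and array medians lay between -0.03 and 0.03. How background was corrected and values normalized is not given in the sources used here, no intensities were used, and signal over background is unknown, so the number of arrays limits the precision. Dye-flipped arrays ran the same way in 26 of 36 pairs, so each value was read as channel 1 over channel 2 in both orientations and turned to the double deletion over the npl3 deletion. NAM7 was used to check this.

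The 6 spots of each of 1536 probes were averaged, then the 2 arrays of an extract pair. The platform annotation named 1457 probes (982 genes, assembly R64), left 79 unnamed and gave no probe several genes. All 37 extract pairs (21 groups) were fitted together with limma 3.58.1 in R 4.3.3 (lmFit and eBayes, 16 residual degrees of freedom). Benjamini-Hochberg adjustment ran over every probe, gene or contrast of a comparison, and an adjusted p under 0.05 was a call. A probe needed a value in at least 50% of the pairs, and all passed. No label says whether extract pairs came from separate cultures. The p-values therefore measure the spread between these pairs alone, which may be technical. SE comes from the fit and SD from the 3 pair means (n = 3). The fit was tested on simulated data. The print order of probes was read from spot positions and locus tags.

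Named probes were NAM7 and NPL3, the largest called rises and falls with the same sign on every array (up to 12 each way for the mean, 6 for a condition), the 10 highest and lowest contrasts, textbook intron genes, and called or leading members of the gene lists. The comparison, its members and the lists were chosen with earlier results of these data known. Alternatives were the median of spots, centring, the spot minimum, a strain loop fit, robust eBayes, the title prefix as a block, single dye orientations, literal reading of the dyes, and leaving out pairs. Probe sequences and coordinates were not used here. Python 3.11.15 with pandas 2.3.3 and matplotlib 3.10.9 arranged the tables and drew the figures.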

Additional observations from a re-analysis of the deposited data

How the results depend on the processing

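Over the mean of 3 pairs, 148 single probes and 93 contrasts were called. The probe count was 235 in the strain loop fit, 275 with the 3 pairs fitted alone and 0 with values read as Cy5 over Cy3, which also left 0 contrasts. The split into 140 rises and 8 falls was 195 and 40 in the loop fit and 202 and 73 with the pairs alone. Leaving out each pair in turn gave 58 to 114 probes and 6 to 88 contrasts. At 30 °C (74 called) the count was 229 in the loop fit, 113 without replicate 3 of the npl3 deletion at 30 °C in the spread, 216 with the title prefix as a fixed block, 29 and 46 from the arrays with the double deletion in Cy5 and Cy3, and 11 read as Cy5 over Cy3. After 15 min (7 called) it was 41 in the loop fit, 24 without that replicate, 3 with robust eBayes, 4 from the Cy5 array, 4 with the title prefix as a random block (added after seeing the data) and 0 read as Cy5 over Cy3. After 30 min (12 called) it was 37 without that replicate, 1 from the Cy5 array and 1 read as Cy5 over Cy3. For differences between conditions, 0 in the main setting, the counts were 5 in the loop fit, 88 with the fixed block, 1 and 3 from the Cy5 and Cy3 arrays and 7 read as Cy5 over Cy3. For the difference between the npl3 deletion and wild type, 0 in the main setting, they were 1 without that replicate and 2 with the fixed block. The cause of these shifts was not tested. Settings with single arrays or left-out pairs also hold fewer samples. The fixed block gave no value for the 30 min pair or the mean, whose prefix holds only groups of its own. For the 30 °C pair the block correction rests on replicate 3 of the npl3 deletion over wild type at 30 °C alone.

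Of 30 named probes and contrasts, all 30 kept their direction and their call under 9 settings, which were the median of spots, centring, no filter, the spot minimum, the loop fit, robust eBayes, the pairs alone, the random block and without that replicate. Without the 30 °C pair 15 lost their call. Single dye orientations lost 2 (Cy5) and 5 (Cy3), and leaving the gbp2 and hrb1 pairs out of the spread (added after seeing the data, 124 probes called) lost 2. Read as Cy5 over Cy3, against the dye flips, 9 reversed. MFA2 was then at -0.15, the second probes of RPL28, RPS21B and RPL21B at -0.0084, -0.11 and -0.052, HTA1 at 0.068, TUB1 at 0.0503, and the contrasts of RPL21B, RPS21B and RPS29A at -0.077, -0.29 and -0.043. Taking 1 probe per gene, the first printed, ribosomal protein genes gave 4 calls in place of 19 and chaperones 0 in place of 1. Dye-flipped arrays were paired by the extract pair number in their titles and averaged. The labels carry no replicate numbers, and those named above were assigned here. No further paired analysis was run.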
